A study of Mus musculus with 12 samples.

Results

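The 8 Gimap genes named in the tables, *Gimap1*, *Gimap3*, *Gimap4*, *Gimap5*, *Gimap6*, *Gimap7*, *Gimap8* and *Gimap9*, were taken by exact gene name from the counts of sorted glomerular endothelial cells (GEC) of the mouse. All 8 were listed in both tables, among 17811 genes for the dim tdT and 17521 genes for the bright tdT GEC, and all 8 passed the filter on low counts in each of the 5 comparisons made. GEC carried a tdTomato (tdT) reporter in the Rosa26 locus that Tek-Cre (B6.Cg-Tg(Tek-cre)1Ywa/J) switches on, and were sorted by flow cytometry from digested glomeruli into cells of low (dim) and high (bright) reporter signal. The 3 wild-type (WT) and 3 Alport syndrome (AS) mice, sex-matched C57BL/6 animals aged 4 months, all carried Tek-Cre and the reporter, and the AS mice also lacked a working *Col4a5*, which encodes a collagen IV chain of the glomerular basement membrane (Col4a5-/-). Each mouse gave 1 dim and 1 bright library, so that 12 libraries of poly-A RNA form 4 groups of 3 (WT-dim, AS-dim, WT-bright and AS-bright). Tek-Cre also recombines in blood cell lineages, which limits the reporter as a mark of endothelium alone.

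GIMAP proteins are GTPases of immunity-associated proteins, small GTP-binding proteins with an AIG1 domain that sit on membranes of the endoplasmic reticulum, lysosomes and other organelles. They are best known from lymphocytes, where several members bear on the survival of T and B cells, and some are also made by endothelium, among them GIMAP5 in the sinusoids of the liver. In the mouse the genes lie side by side in a cluster.

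In the GRCm38 build the 8 genes span chr6:48647234-48770851, a stretch of 123.618 kb, with 6 genes on the plus and 2 (*Gimap6* and *Gimap3*) on the minus strand. The order from the start is *Gimap8*, *Gimap9*, *Gimap4*, *Gimap6*, *Gimap7*, *Gimap1*, *Gimap5* and *Gimap3*. All 8 are annotated as protein-coding. Another 5 annotated genes lie between the outermost members, of which 2 share exon bases with them. *Gm28053*, on the plus strand, runs over *Gimap7*, *Gimap1* and *Gimap5* and shares 81, 198 and 153 exon bases with them. *Gimap1os*, on the minus strand, shares 1107 exon bases with *Gimap1*. The strand that was counted is not given in the sources used here, so the counts of these genes could include reads of their partner. Among the members themselves, *Gimap3* and *Gimap5* share 7.516% and 4.529% of their stretches of 50 bases with each other, and the effect of this on their counts was not tested.

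**Figure D1:**
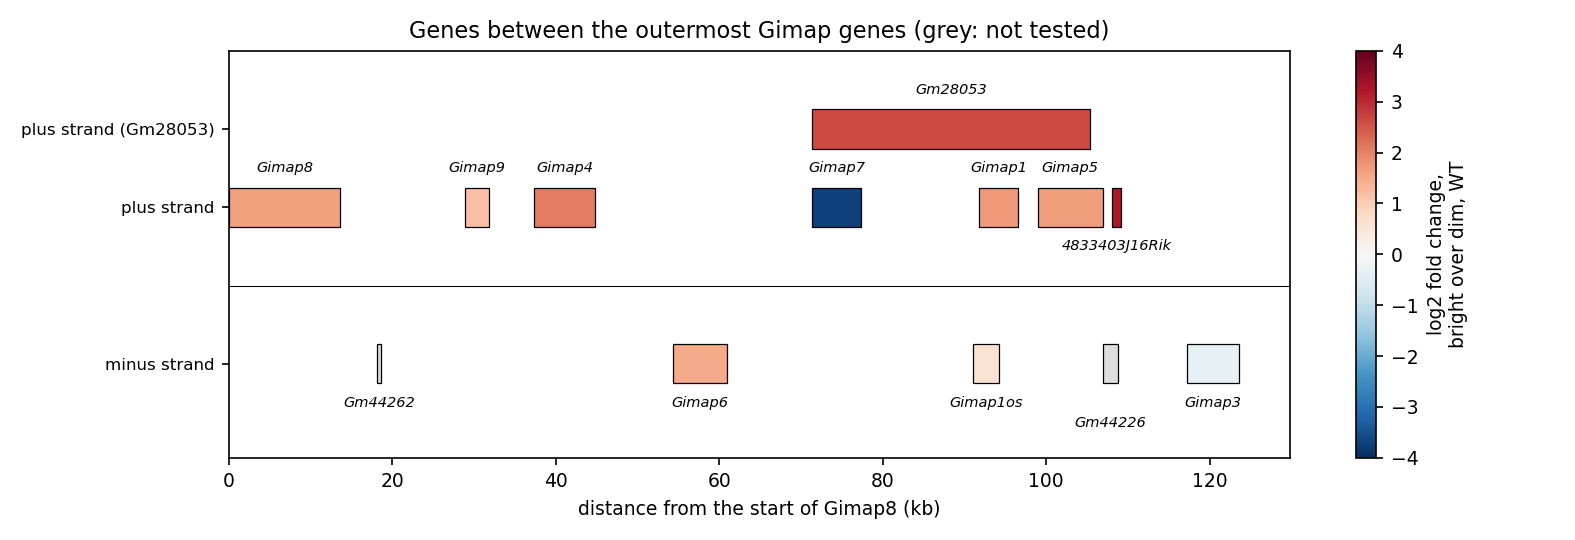
Map of the genes between the outermost Gimap genes, by distance from the start of *Gimap8* in kb, with plus-strand genes above and minus-strand genes below the line. The colour is the log2 fold change of bright over dim GEC in WT mice, and *Gimap7*, at -3.74, is the 1 member in deep blue between neighbours in red.

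The promoters of 4 members are shown, the 2 that hold the letters GGAAGT and 2 that did not rise in bright GEC. Each is the 250 bases that precede the RefSeq start (GRCm38.p6, with an entry for all 8 members), 5′ to 3′ on the strand of the gene. The next 50 bases begin an annotated transcript for *Gimap5*, *Gimap7* and *Gimap3*, but for *Gimap6* no annotated transcript holds them whole. The position given for GGAAGT in *Gimap6* thus rests on the RefSeq start. *Gimap5* (chr6:48745947-48746196, plus strand) and *Gimap6* (chr6:48708245-48708494, minus strand) had higher levels in bright GEC. *Gimap7* (chr6:48718371-48718620, plus strand) had lower levels there, and *Gimap3* (chr6:48770852-48771101, minus strand) had the most even levels. Capitals mark GGAAGT, the core letters of ETS family sites, a family that includes the endothelial factor ERG.
Gimap5: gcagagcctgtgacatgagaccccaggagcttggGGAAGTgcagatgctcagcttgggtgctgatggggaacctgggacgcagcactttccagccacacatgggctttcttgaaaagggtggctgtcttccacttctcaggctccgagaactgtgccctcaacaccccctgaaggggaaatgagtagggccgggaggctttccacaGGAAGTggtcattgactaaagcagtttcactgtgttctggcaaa
Gimap6: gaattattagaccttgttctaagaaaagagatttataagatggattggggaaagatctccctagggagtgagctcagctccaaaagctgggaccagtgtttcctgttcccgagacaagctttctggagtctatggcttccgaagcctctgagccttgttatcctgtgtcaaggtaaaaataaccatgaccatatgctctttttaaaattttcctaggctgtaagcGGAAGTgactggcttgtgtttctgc
Gimap7: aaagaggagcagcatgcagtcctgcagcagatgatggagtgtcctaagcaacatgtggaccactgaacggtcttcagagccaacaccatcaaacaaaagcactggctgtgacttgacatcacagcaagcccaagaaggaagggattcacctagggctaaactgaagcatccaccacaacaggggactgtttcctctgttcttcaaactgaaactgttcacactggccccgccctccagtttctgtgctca
Gimap3: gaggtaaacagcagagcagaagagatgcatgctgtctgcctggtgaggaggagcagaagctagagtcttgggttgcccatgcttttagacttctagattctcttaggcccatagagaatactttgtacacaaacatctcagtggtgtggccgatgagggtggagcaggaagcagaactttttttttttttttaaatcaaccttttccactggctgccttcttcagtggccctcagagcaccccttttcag

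GGAAGT, searched on both strands, was found in the promoters of 2 of the 8 members, *Gimap5* (at 216 and 44 bases before the start) and *Gimap6* (at 25 bases), and in 19.7% of 32851 mouse promoters of the same length. The other 4 members that rose in bright GEC (*Gimap1*, *Gimap4*, *Gimap8* and *Gimap9*) do not hold these letters in this window, and neither do *Gimap7* and *Gimap3*. The RUNX letters TGTGGT stood in 3 members (*Gimap1*, *Gimap4* and *Gimap7*) and in 14% of all promoters. The GATA letters AGATAA stood in 0 members and in 9.99% of all promoters, and the KLF letters CACCC in 5 members and 52% of all promoters. These are matches of letters and say nothing of whether a factor binds there.

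Counts on genes summed to 11440169 to 15074909 per library. *Col4a5* fell in the AS-dim libraries, with 51, 24 and 17 counts against 771, 439 and 877 in WT-dim (log2 fold change -4.69, Benjamini-Hochberg adjusted p = 0.00982 in edgeR's quasi-likelihood fit). Podocyte markers also summed to less in AS-dim, as given below, and the part of cell make-up in the fall of *Col4a5* was not tested. In bright GEC *Col4a5* was low in both genotypes, with 43, 104 and 55 counts in AS and 158, 69 and 78 in WT, and did not check the labels there (log2 fold change -0.60, adjusted p = 0.495 from the same test). The 12 endothelial markers, *Cdh5* and *Kdr* among them, summed to 11683 to 18769 CPM (counts per M counts, with library sizes scaled by TMM, for the marker sums within each table) in the bright libraries, 722 to 1364 in WT-dim and 223 to 316 in AS-dim. Of 8 T cell markers, 5 were not in the bright table, *Cd3d*, *Cd3e* and *Cd3g* among them, and the remaining 3 summed to 1.35 to 7.91 CPM there, against 462 to 581 CPM for all 8 in the dim libraries. B cell markers summed to 558 to 1057 CPM in dim and 2.06 to 5.57 CPM in bright libraries, and myeloid markers to 2698 to 8735 and 33.7 to 69.4 CPM. The 4 NK cell markers summed to 102 to 195 CPM in dim libraries and were not in the bright table. Podocyte markers summed to 476 to 981 CPM in WT-dim, 192 to 234 CPM in AS-dim, 965 to 1145 CPM in WT-bright and 1260 to 1378 CPM in AS-bright libraries. Of these 5 markers, 3 were lower in bright than in dim GEC of WT and 1 was higher, *Podxl* (log2 difference 1.85), which endothelial cells also express, whereas in AS 4 were higher and 0 lower. Mesangial and mural markers summed to 116 to 178 CPM in WT-dim and 57.4 to 101.0 CPM in AS-dim over 4 markers, since *Myh11* was not in the dim table, and to 415 to 833 CPM in WT-bright and 414 to 740.1 CPM in AS-bright over 5. Proximal tubule markers summed to 826 to 3589 CPM in WT-dim, 9.99 to 276 CPM in AS-dim, 268 to 1574 CPM in WT-bright and 42.7 to 301 CPM in AS-bright libraries. The dim libraries thus held leukocyte as well as endothelial transcripts. Their myeloid markers summed to more than their endothelial ones, at 2698 to 4747 against 722 to 1364 CPM in WT-dim. In AS-dim these sums were 6503 to 8735 against 223 to 316 CPM. Dim GEC is here the name of the sorted fraction, and its levels are those of all cells in it. In bulk RNA fewer cells of a type and less RNA per cell cannot be told apart.

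The first comparison asked how the members differ between the bright and dim subpopulations of WT mice. Of the 8 members, 6 rose in bright GEC (*Gimap4*, *Gimap1*, *Gimap5*, *Gimap8*, *Gimap6* and *Gimap9*), 1 fell (*Gimap7*) and 1 did not pass the test (*Gimap3*). Among all 14247 genes tested 25.3% were called, 13.8% higher and 11.5% lower. The median log2 fold change of the 8 members was 1.58, beside -0.04 for all genes. The WT-bright and WT-dim libraries did not overlap for the 7 called members, as for 41.8% of all genes tested, and the AS-bright and AS-dim libraries did not overlap for all 8, as for 62.2% of genes. In the AS mice the same 6 members rose, *Gimap7* fell, and *Gimap3* also fell, so that all 8 were called, beside 55.1% of 14052 genes tested, 28.6% higher and 26.5% lower. The AS median was 1.58 for the members and 0.02 for all genes.

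**Figure D2:**
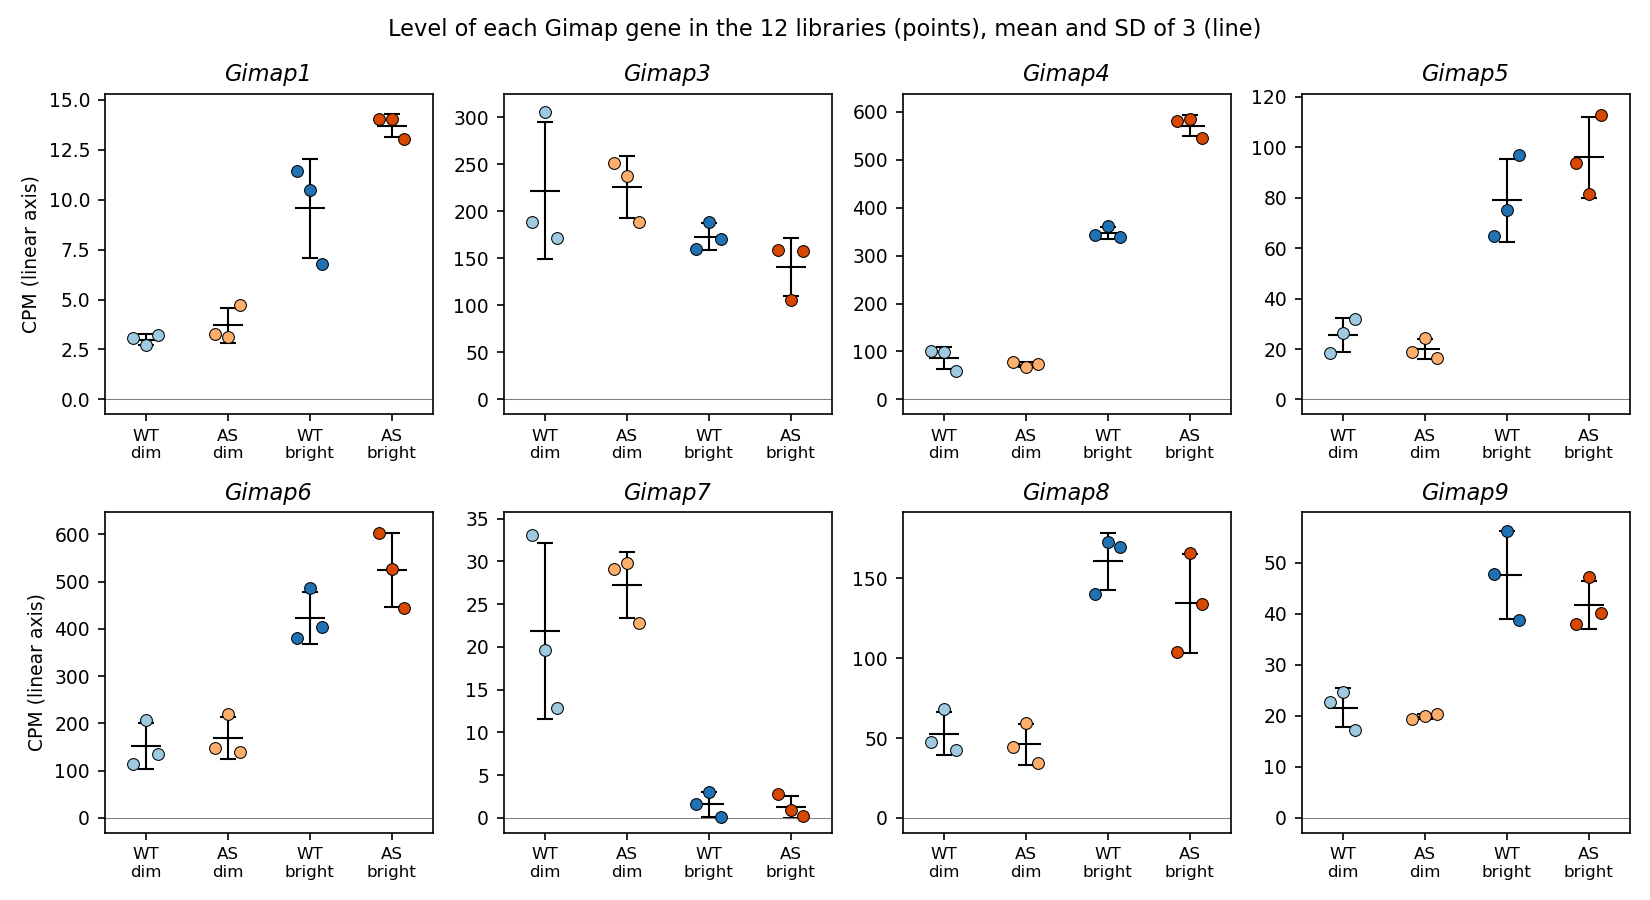
Level of each Gimap gene in CPM on a linear axis, with a point for each of the 12 libraries and the mean and SD of 3 as a line. For 6 genes the bright libraries lie above the dim ones, for *Gimap7* they lie near 0 and below them, and for *Gimap3* WT-dim and WT-bright overlap.

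*Gimap4*, whose protein hastens the death of T cells, had the highest fold change. It reached 101, 98.6 and 59.7 CPM in the WT-dim and 343, 362 and 339 CPM in the WT-bright libraries. In AS mice it had 77.4, 66.6 and 74.3 CPM in the dim and 582, 586 and 546 CPM in the bright libraries. All AS-bright libraries lay above all WT-bright ones, and both bright groups lay far above the dim ones. The log2 fold change of bright over dim was 2.06 in WT (SE 0.26, adjusted p = 0.000498 from edgeR), a 4.17-fold difference. The AS value was 2.96 (SE 0.17, adjusted p = 2.6e-07 from the same test), a 7.79-fold difference.

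*Gimap6*, whose protein binds the autophagy protein GABARAPL2, had its lowest levels in dim GEC. It had 114, 207 and 136 CPM in WT-dim and 382, 486 and 403 CPM in WT-bright libraries. In AS it had 147, 220 and 139 CPM in dim and 603, 526 and 445 CPM in bright libraries. Bright and dim libraries did not overlap in either genotype, while replicate 2 was the highest dim library of both genotypes. Bright over dim gave a log2 fold change of 1.52 in WT (SE 0.28, adjusted p = 0.00389 from edgeR) and 1.63 in AS (SE 0.22, adjusted p = 0.000151).

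*Gimap5*, needed for the survival of lymphocytes and for a healthy liver endothelium, had 18.3, 26.4 and 32 CPM in WT-dim and 64.8, 75.1 and 97 CPM in WT-bright libraries. In AS it had 19, 24.3 and 16.6 CPM in dim and 93.8, 81.3 and 113 CPM in bright libraries. The groups were well apart within each genotype, and the log2 fold change was 1.67 in WT (SE 0.32, adjusted p = 0.00464 from edgeR) and 2.26 in AS (SE 0.22, adjusted p = 1.43e-05).

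*Gimap8*, which encodes the largest protein of the family with repeated AIG1 domains, had 47.6, 68.4 and 42.4 CPM in WT-dim and 140, 173 and 169 CPM in WT-bright libraries. In AS it had 44.7, 59.4 and 34.1 CPM in dim and 104, 166 and 134 CPM in bright libraries. Its log2 fold change was 1.65 in WT (SE 0.27, adjusted p = 0.00197 from edgeR) and 1.54 in AS (SE 0.25, adjusted p = 0.000558). The groups did not overlap in either genotype.

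*Gimap1*, known for its part in mature T and B cells, had few counts in dim GEC, 35, 32 and 38 in WT-dim and 46, 38 and 59 in AS-dim libraries. It had 181, 147 and 103 counts in WT-bright and 193, 215 and 179 counts in AS-bright libraries. Its log2 fold change was 1.72 in WT (SE 0.48, adjusted p = 0.0274 from edgeR) and 1.88 in AS (SE 0.3, adjusted p = 0.000448). The WT call was lost when any of 5 of the 6 WT libraries was left out, with log2 fold changes of 1.55 to 1.79 and adjusted p = 0.0547 to 0.0767, in a range of 0.0021 to 0.0767 over 15 alternatives. *Gimap1os*, which overlaps it, had at most 30 counts in any library and passed the test in neither genotype.

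*Gimap9* had the smallest called increase. It had 22.8, 24.6 and 17.3 CPM in WT-dim and 47.8, 56.2 and 38.9 CPM in WT-bright libraries. In AS it had 19.4, 19.9 and 20.3 CPM in dim and 38, 47.1 and 40.1 CPM in bright libraries. The groups did not overlap, and the log2 fold change was 1.19 in WT (SE 0.30, adjusted p = 0.0191 from edgeR) and 1.06 in AS (SE 0.20, adjusted p = 0.00127). Without WT-dim replicate 3, WT-bright replicate 1 or WT-bright replicate 2 the WT call was lost (adjusted p = 0.0503 to 0.0715, in a range of 0.00204 to 0.0715 over 15 alternatives). Over these 15 alternatives its log2 fold change in WT was 1.07 to 1.33.

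*Gimap7*, a GTPase that can activate other family members, went the other way. It had 377, 232 and 153 counts in WT-dim but 25, 43 and 2 counts in WT-bright libraries. In AS it had 411, 359 and 285 counts in dim and 38, 14 and 3 counts in bright libraries. Every dim library had at least 153 counts and every bright library at most 43, so the groups did not overlap. Bright over dim gave -3.74 on the log2 scale in WT (SE 0.71, adjusted p = 0.00459 from edgeR), 13.4-fold lower in bright, and -4.40 in AS (SE 0.48, adjusted p = 3.34e-05), 21.1-fold lower. The size of the fall rested on single bright libraries: without WT-bright replicate 2 it was -4.55 in WT and without AS-bright replicate 1 it was -5.52 in AS, in ranges of -4.55 to -3.18 and -5.52 to -3.91 with 1 library left out. Replicate 3 of both genotypes held the fewest counts in bright. T cell markers moved in the same direction: of 8, the 3 tested (*Trac*, *Lck* and *Cd2*) all fell in bright GEC of both genotypes, with *Trac* at -8.92 and *Lck* at -2.34 on the log2 scale in WT. Of the B cell markers 4 of 4 tested (all but *Pax5*) fell, and of the myeloid markers 5 of 5 (all but *Itgam*). The part of leukocyte RNA in the level of *Gimap7* was not tested.

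*Gimap3*, the close paralog of *Gimap5*, was the most even member. It had 188, 306 and 172 CPM in WT-dim and 160, 188 and 170 CPM in WT-bright libraries, which overlapped. In AS it had 252, 238 and 189 CPM in dim and 159, 105 and 158 CPM in bright libraries, which did not overlap. The log2 fold change was -0.32 in WT (SE 0.27, adjusted p = 0.426 from edgeR), and in AS it fell by 0.70 on the log2 scale (SE 0.21, adjusted p = 0.0159). The AS call was lost without AS-dim replicate 1 (log2 fold change -0.61, adjusted p = 0.0713, in a range of 0.00678 to 0.0713 over 15 alternatives), and the interaction for *Gimap3* did not pass the test (-0.32, SE 0.35).

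**Figure D3:**
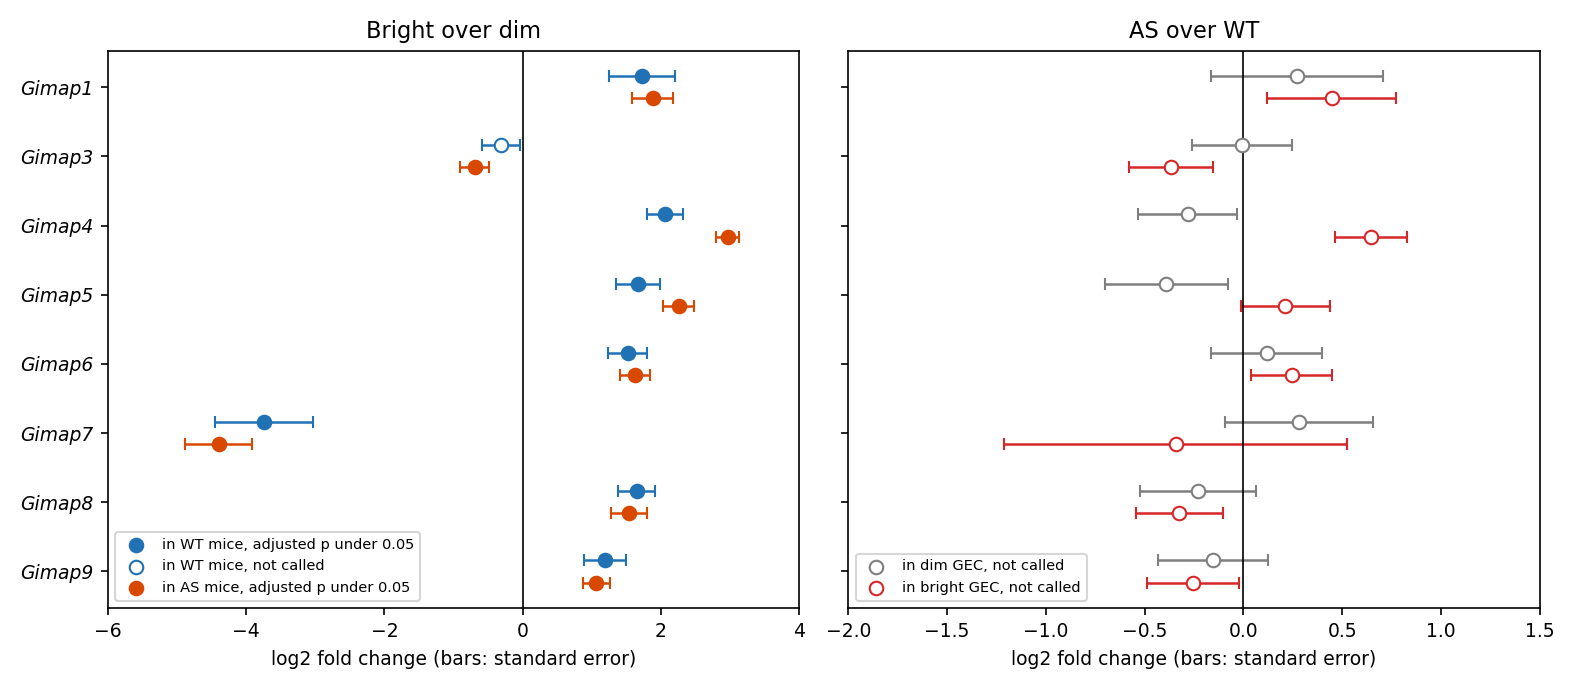
Log2 fold changes of the 8 Gimap genes with standard errors as bars, bright over dim in each genotype (left) and AS over WT in each subpopulation (right), where filled points had an adjusted p under 0.05. On the left *Gimap4* reaches 2.06 and 2.96 and *Gimap7* -3.74 and -4.40, and on the right all points are open.

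Within each mouse the direction was the same. *Gimap4* was higher in the bright than in the dim library of all 6 mice, by 1.76 to 3.13 on the log2 CPM scale, and *Gimap7* was lower in all 6, by values from -2.65 to -6.29. The within-mouse difference of *Gimap9* was the steadiest, at 0.97 to 1.24. That of *Gimap3* ran from -0.01 to -1.18, below 0 in all 6 animals. In a fit with the mouse as a replicate block, 7 members were called in WT, beside 31.2% of all genes, and 8 in AS, beside 55.2%.

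The second question was whether AS changes the members within a subpopulation. In dim GEC 0 of 8 members were called by edgeR, beside 8.63% of 14637 genes. At an unadjusted p under 0.05 the count was 0 as well, beside 26.3% of all genes, and DESeq2 called 0, beside 15.2% of all genes. The log2 fold changes of AS over WT ranged from -0.39 (*Gimap5*, SE 0.31) to 0.28 (*Gimap7*, SE 0.37), with a median of -0.08 beside -0.02 for all genes, and WT and AS libraries overlapped for all 8, where 31.9% of the genes in both tables did not overlap. The sign for *Gimap3*, at -0.01 (SE 0.25), changed under another scaling. Over the same dim libraries 7 of 12 endothelial markers fell in AS, with a median of -2.22, and 4 of 6 myeloid markers (*Csf1r*, *Adgre1*, *Lyz2* and *Mpeg1*) rose, with a median of 1.06. Of the podocyte markers 3 of 5 fell, and of the proximal tubule markers 3 of 6 (*Lrp2*, *Aqp1* and *Miox*) fell, with a median of -4.20. Of the T, B and NK cell markers 0 of 8, 0 of 5 and 0 of 4 were called.

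In bright GEC 0 of 8 members were called by edgeR, beside 0.452% of 14396 genes. *Gimap4* was closest, with an unadjusted p of 0.00505 from edgeR's fit and the other 7 members above 0.05, a level that 21.8% of all genes passed. Its AS-bright libraries at 546 to 586 CPM lay above the WT-bright libraries at 339 to 362 CPM. AS-bright and WT-bright libraries also did not overlap for *Gimap1*, which was higher in AS (13 to 14.1 against 6.77 to 11.5 CPM), and for *Gimap3*, which was lower in AS (105 to 159 against 160 to 188 CPM). The groups thus did not overlap for 3 of the 8 members, beside 24.8% of the genes in both tables. For *Gimap4* the log2 fold change was 0.64 (SE 0.18, adjusted p = 0.0966 from edgeR), a 1.56-fold difference, and DESeq2 called it (log2 fold change 0.63, adjusted p = 0.0254, in a range of 0.0254 to 0.363 over 15 alternatives), as it did 7.82% of all genes. The other members had log2 fold changes between -0.37 (*Gimap3*, SE 0.21) and 0.45 (*Gimap1*, SE 0.33), and for *Gimap7* the error was wide (-0.34, SE 0.87). Of the 12 endothelial markers 0 were called in bright GEC, with a median of 0.38.

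The interaction asked whether the AS change differs between bright and dim GEC. It called 0 of 8 members by edgeR, beside 3.77% of 15084 genes, with *Gimap4* alone at an unadjusted p under 0.05 (0.00498), as for 18.5% of all genes. For *Gimap4* the difference of the log2 fold changes was 0.96 (SE 0.29, adjusted p = 0.0822 from edgeR), against a median of 0.13 for all genes. DESeq2 called it at 0.91 (adjusted p = 0.0433), as did edgeR without WT-dim replicate 3, at 1.17 (adjusted p = 0.0121), in a range of 0.0121 to 0.239 over 20 alternatives. These fits called 8.05% and 5.6% of all genes. WT-dim replicate 3 held the lowest dim level of *Gimap4*. Of the others, *Gimap5* had 0.64 (SE 0.37) and *Gimap7* -0.59 (SE 0.99), and 4 further members lay between -0.07 and 0.21, with *Gimap3* as given above. Of the 12 endothelial markers 9 had a called interaction, with a median of 2.55.

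Levels of different genes were compared only as CPM per kb, with the length of the merged exons (Gencode M21) because the length column in the tables is near the sum over all transcripts. In both bright groups the order was *Gimap4*, *Gimap6*, *Gimap3*, *Gimap8*, *Gimap9*, *Gimap5*, *Gimap1* and *Gimap7*. *Gimap4* stood at 189 ± 6.88 CPM per kb (SD, n = 3) in WT-bright and 311 ± 12.1 (SD, n = 3) in AS-bright, and *Gimap6* at 121 ± 15.7 and 150 ± 22.5. In WT-bright each member's range lay apart from that of the next in the order. In AS-bright *Gimap3*, *Gimap8*, *Gimap9* and *Gimap5* overlapped their neighbours.

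In dim GEC *Gimap3* led, at 86.1 ± 28.3 CPM per kb (SD, n = 3) in WT and 87.7 ± 12.8 in AS, above all other members. *Gimap4* and *Gimap6* followed and overlapped each other, at 47 ± 12.6 and 43.5 ± 14 in WT-dim. *Gimap8*, *Gimap9* and *Gimap7* overlapped next to each other in both genotypes, and *Gimap1* was last, at 0.974 ± 0.0842 in WT-dim. With the length column of the tables *Gimap6* came before *Gimap4* in each of the 4 groups, and the first place of *Gimap3* in dim GEC and the last of *Gimap7* in bright GEC stayed.

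As shares of the summed level, *Gimap3* made up 38.6% in WT-dim and 40.2% in AS-dim but 14.2% in WT-bright and 9.04% in AS-bright. *Gimap4* went from 21.4% and 18.4% in dim to 40.2% and 51.3% in bright GEC. The sum over the 8 genes was 174 to 281 CPM per kb in the dim and 445 to 630 CPM per kb in the bright libraries, without overlap.

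**Figure D4:**
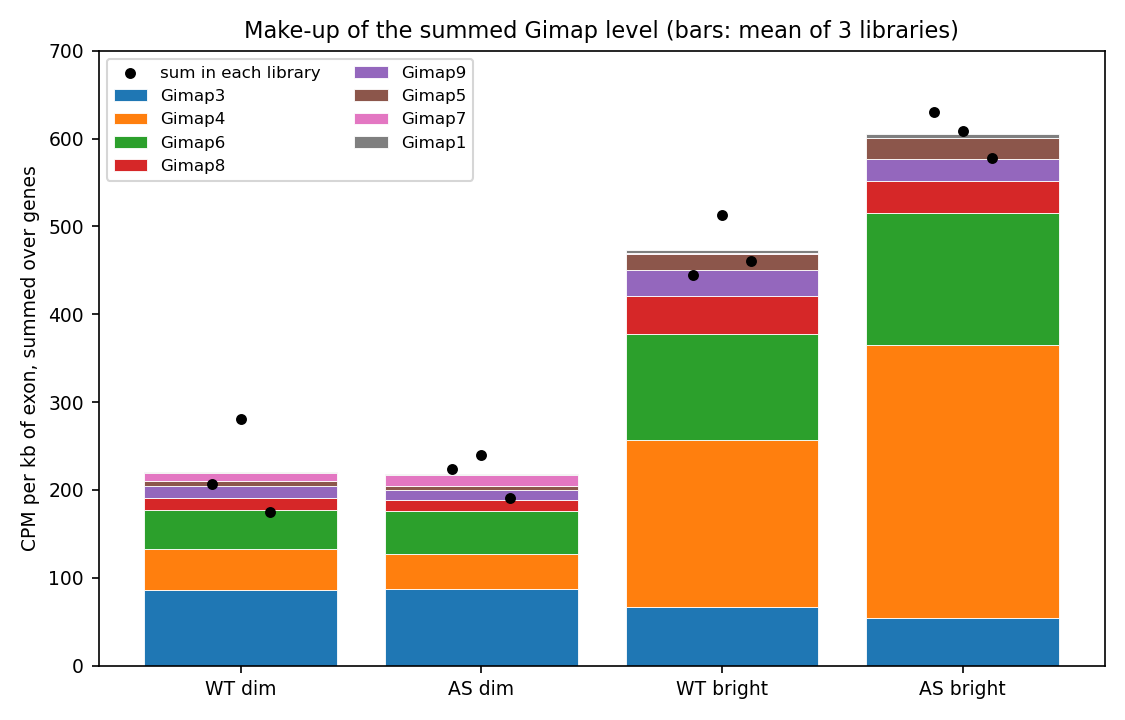
Summed Gimap level in CPM per kb of exon, as stacked bars of the mean of 3 libraries per group, with the sum in each library as points. *Gimap3* is the largest share of both dim bars and *Gimap4* of both bright bars.

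The endothelial markers are set beside the family for the size of their changes. All 12 endothelial markers rose in bright GEC of both genotypes, with a median of 3.70 on the log2 scale in WT (from 3.27 for *Flt1* to 4.11 for *Cdh5*) and 6.23 in AS, where *Kdr* had 7.03. The highest Gimap values were 2.06 and 2.96, both for *Gimap4*. The difference of the gene groups was not tested. In the dim libraries, the endothelial markers summed to lower values in AS than in WT, without overlap, while the Gimap CPM, summed on the same scale within the dim table, were 490 to 647 in AS and 470 to 752 in WT, and overlapped.

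**Figure D5:**
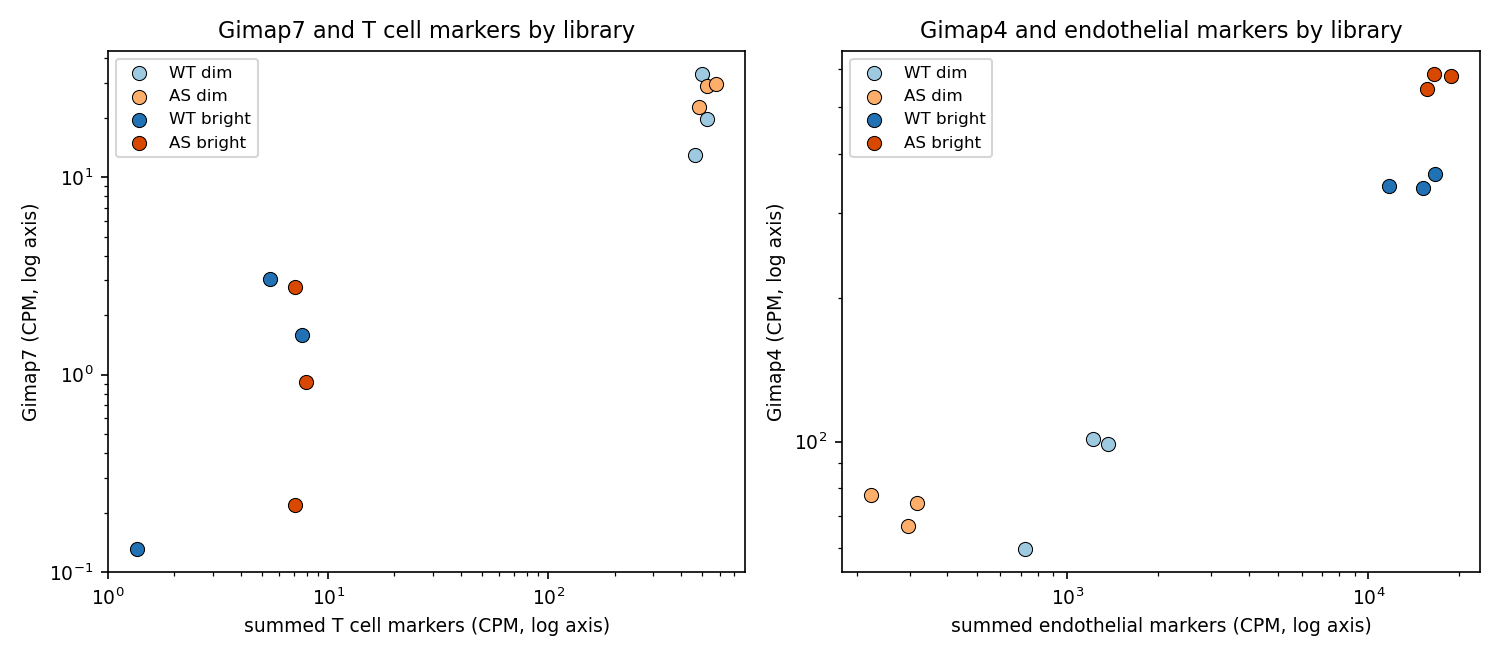
*Gimap7* against summed T cell markers (left) and *Gimap4* against summed endothelial markers (right), in CPM on log axes, with 1 point per library coloured by group. On the left all bright libraries lie below 4 CPM of *Gimap7* and 8 CPM of T cell markers, and on the right AS-dim and WT-dim lie apart in endothelial markers and overlap in *Gimap4*. Marker sums were scaled within each table.

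The other genes of the locus were read in the same fits. The lincRNA *4833403J16Rik*, between *Gimap5* and *Gimap3*, had 59, 57 and 44 counts in WT-dim and 630, 576 and 671 counts in WT-bright libraries. It rose in bright GEC by 3.24 on the log2 scale in WT (SE 0.35, adjusted p = 0.000213 from edgeR) and 2.96 in AS (SE 0.30, adjusted p = 1.66e-05), more than any Gimap gene in WT. *Gm28053*, the read-through gene that runs over *Gimap7*, *Gimap1* and *Gimap5*, had at most 21 counts in dim and 23 to 103 counts in bright libraries, and rose by 2.6 in WT (adjusted p = 0.0342 from edgeR) and 3.95 in AS on the log2 scale. Next to the cluster, *Tmem176b* and *Tmem176a*, ion channel-like membrane proteins of the neighbouring locus, rose in AS (1.07 and 1.66) but had 0.97 and 1.15 with adjusted p = 0.13 and 0.0699 from edgeR in WT. On the other side *Zfp775* had at most 32 counts in any library and was not tested, and *AI854703* passed in neither genotype. *Gm44965*, *Aoc1* and *Gm44262* were in neither table, and *Gm44226* was in the bright one.

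Of 14 genes whose proteins are linked with GIMAP proteins in autophagy, GSK3, FOXO and BCL2 signalling, 3 were called in WT bright over dim, beside the 25.3% of all genes. *Bcl2l1*, a guard against cell death, rose by 1.77 (SE 0.39), *Gabarapl2*, the partner of GIMAP6, rose by 1.11 (SE 0.26), and *Bcl2l11*, which promotes cell death, fell by 2.71 on the log2 scale (SE 0.32). In AS 5 rose (*Bcl2l1*, *Map1lc3a*, *Gabarapl1*, *Gabarapl2* and *Map1lc3b*) and 3 fell (*Bcl2l11*, *Bcl2* and *Foxo3*), beside 55.1% of all genes. For AS over WT, *Gabarapl1* fell by 1.92 on the log2 scale in dim GEC (SE 0.42, adjusted p = 0.0337 from edgeR), the 1 of 14 called there beside 8.63% of all genes tested. In bright GEC and in the interaction 0 of 14 were called, beside 0.452% and 3.77% of all genes. *Gabarapl2* and the other genes outside the extremes of the list were named after their values were seen.

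By the root mean square difference of centred log2 CPM over the 12 libraries, among 15116 genes, the genes most like each member were described without a test. *Gimap4* was most like *App* (0.23) and *Rgs3* (0.241), *Gimap5* like *Rab12* (0.178) and *Inpp5k* (0.183), and *Gimap6* like *Smad5* (0.223) and *Sptan1* (0.235). *Gimap8* was most like *Gnaq* (0.252) and *Gm46430* (0.262), *Gimap9* like *Rbm18* (0.172) and *Sptssa* (0.174), and *Gimap1* like *Arl4a* (0.222) and *Fmnl2* (0.244). *Gimap3* was nearest to *Gramd1a* (0.202) and *Ccrl2* (0.203). *Gimap7* had no gene as near, with *Fgd2* (0.773) and *Dock10* (0.808) the closest. It had only 2 to 43 counts per bright library, and the part of counting noise in its distances was not tested. Between members the smallest difference was 0.337, of *Gimap6* and *Gimap8*, and *Gimap7* differed by 2.34 or more from every other member. The libraries share depth and sort, which these values do not separate.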

How the data were processed

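RNA of sorted dim and bright tdT GEC of 3 WT and 3 AS mice gave 12 libraries. The authors aligned the reads with STAR 2.6.0c to GRCm38.p5 (Gencode M16) and deposited raw counts per gene in a table per subpopulation. The authors also deposited RPKM, log2 fold changes and logCPM, a likelihood ratio score and p-values of AS over WT from edgeR, none of which were used, as well as a gene length. The submitters' processing notes further name FastQC 0.11.5, cutadapt and Trimmomatic.

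The quasi-likelihood test of edgeR 4.0.16 (R 4.3.3, TMM, filterByExpr) was run on counts, with Benjamini-Hochberg adjustment over all genes and a threshold of 0.05. The 92 ERCC rows of each table were left out. AS over WT used the 6 libraries of a table, bright over dim the 15768 genes in both tables, and the interaction all 12 libraries. The main fits held no term for the mouse, which entered only as an alternative. CPM printed were scaled over all 12 libraries, log2 CPM with a prior count of 1. Dim and bright libraries of a number share an identifier in the labels and were taken as the same mouse. The correlation of deviations was 0.0837 to 0.388 for shared and -0.284 to 0.182 for different numbers of a genotype, which overlap. In AS, dim replicates 1 and 3 each correlated more with the other's bright library (0.0977 and 0.182) than with their own (0.0837 and 0.174). The pairing thus rests on the labels. No source says that WT and AS mice were paired. The chi-square of each replicate pair was at least 29.5 per degree of freedom, above counting noise, so all were counted. Genes compared in pattern had 10 counts in 3 libraries.

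The members, marker lists and linked genes were chosen with earlier results of these data known. Named were the 8 members, genes of the locus, the extremes of each list and the 2 genes most like each member. Alternatives were RLE, library sizes alone, DESeq2 1.42.0, the likelihood ratio test, other filters, a replicate block, all 12 libraries in one fit, each library left out and, added after seeing the data, the version 3 fit of edgeR. The edgeR and DESeq2 fits were also run on simulated counts with set changes, and the outcome is not given here. Proteins were not analysed here.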

Additional observations from a re-analysis of the deposited data

How the results depend on the processing

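Of 80 recomputed counts of called members 77 stayed within 1.5 times of the value given, and of 639 recomputed log2 fold changes 608 kept their direction and their side of the threshold. For AS over WT and the interaction the value given was 0, where the rule can only ask that it stay 0. A count of 5 against 7 also passes the rule. DESeq2 called 1 member for AS over WT in bright GEC (7.82% of all genes, 0.452% in the main test) and 1 in the interaction (8.05%, 3.77% in the main test), *Gimap4* both times, and 0 were called in the main test. Leaving out 1 library at a time gave 5 to 7 members called for bright over dim in WT (17.3% to 23.3% of all genes), 7 to 8 in AS (45.6% to 52.2%), 0 for AS over WT in dim (0% to 11.9%) and bright GEC (0% to 1.88%) and 0 to 1 in the interaction (1.65% to 5.6%). The mouse as a replicate block called 7 members in WT (31.2% of all genes) and 8 in AS (55.2%) for bright over dim and changed no other call of a member. Blocking WT and AS by shared number, which pairs no animals, left 0 members called in dim and bright GEC, and over all genes 494 and 16 calls in place of 1263 and 65. The version 3 fit of edgeR and the other tools also left the counts of members for bright over dim at 7 and 8.

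Signs turned for values near 0 or with wide errors, none of them called. For AS over WT in dim GEC *Gimap3*, at -0.01, had 0.058 with library sizes alone, 0.0030 with every gene with a count, 0.031 with the replicate block, 0.027 with all 12 libraries in one fit and -0.16 to 0.26 with a library left out, and *Gimap6* had -0.16 to 0.37. *Gimap7* in bright GEC had -1.49 to 0.47. In the interaction, leaving out a library gave -0.021 to 0.43 for *Gimap1*, -0.13 to 0.33 for *Gimap6*, -1.73 to 0.25 for *Gimap7*, -0.37 to 0.10 for *Gimap8* and -0.30 to 0.070 for *Gimap9*. The cause was not tested. Library sizes alone moved the median of all genes in the interaction from 0.13 to -0.03.

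Calls over all genes ranged from 0 to 2213 for AS over WT in dim GEC, 0 to 1078 in bright GEC, 2534 to 5207 for bright over dim in WT, 6594 to 7755 in AS and 252 to 1184 in the interaction. With 3 mice per group, and 2 to 43 counts of *Gimap7* per bright library, its change between genotypes in bright GEC could not be resolved (SE 0.87).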
